A study of Mus musculus with 2 samples.

Results

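The genes described here encode the subunits of the 5 enzyme complexes of oxidative phosphorylation. They were chosen by symbol alone, as the Nduf, Sdh, Uqcr, Cyc1, Cox4 to Cox8 and Atp5 genes and the protein-coding genes of mitochondrial DNA, with Cox4i2 left out. The rule found 96 of the 32285 genes listed, 83 of them nuclear, on 19 chromosomes, and 13 mitochondrial. Complex I has 42 members (35 nuclear), complex II 4, complex III 10 (9 nuclear), complex IV 21 (18 nuclear) and complex V 19 (17 nuclear). Ndufa4 was counted in complex IV, of which it is now known to be a part, and Cox7a2l, which matches the rule, is an assembly factor of supercomplexes rather than a core subunit. Levels were measured by single-cell RNA sequencing in cultured progenitors of subcutaneous white (WAT) and interscapular brown (BAT) adipose tissue from newborn C57/BL6J mice, without any genetic or drug treatment. Each depot is 1 library from a pool of 4 male and female pups, whose stromal cells were grown to confluency in serum and released with trypsin. Brown tissue was digested for longer than white tissue, so that depot, digestion and library cannot be told apart.

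Complex I (NADH dehydrogenase) and complex II (succinate dehydrogenase) pass electrons to ubiquinone, complex III passes them on to cytochrome c, and complex IV (cytochrome c oxidase) passes them to oxygen. Complexes I, III and IV pump protons, and complex V (ATP synthase) uses the gradient to make ATP. Complexes I, III, IV and V join nuclear subunits made in the cytosol with a few made inside mitochondria, and complex II is wholly nuclear. Some subunits of complex IV come as a widespread isoform and as a second one of heart and skeletal muscle (Cox6a2, Cox7a1, Cox8b), which brown adipocytes also use in part, and Cox6b2 is the testis isoform. Brown adipocytes are known for abundant mitochondria and the uncoupling protein Ucp1, but the cells measured here were precursors: Ucp1 had 0.0325 CPM (UMIs of the gene for each 1e+06 UMIs of the group) in white and 0.0118 CPM in brown precursor cells.

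The nuclear members are known to share control by the factors NRF1, GABP and the estrogen-related receptors. Among RefSeq promoters (GRCm38.p6, 250 bases before to 50 after the start), 67 of the 83 nuclear members had an entry. The NRF1 motif, which is GCGC, any base and TGCGC, searched on both strands like the others, was in 23.9% of the member promoters and in 4.78% of all 27025 promoters. The GABP motif CCGGAAG was in 23.9% against 9.12%, and the motif of estrogen-related receptors, AAGGTCA, in 11.9% against 4.66%. The E-box CAGCTG, a motif bound by MyoD, was in 8.96% against 16.1%. A match describes letters only and is no measured binding site. Promoters are printed of 3 members because the widespread isoforms Cox6a1 and Cox8a and the muscle isoform Cox8b had different patterns in the cells below, and the capitals mark the NRF1 and GABP matches in the first pair and the E-boxes in the last one.
Cox6a1 promoter, chr5:115348909-115349208, minus strand: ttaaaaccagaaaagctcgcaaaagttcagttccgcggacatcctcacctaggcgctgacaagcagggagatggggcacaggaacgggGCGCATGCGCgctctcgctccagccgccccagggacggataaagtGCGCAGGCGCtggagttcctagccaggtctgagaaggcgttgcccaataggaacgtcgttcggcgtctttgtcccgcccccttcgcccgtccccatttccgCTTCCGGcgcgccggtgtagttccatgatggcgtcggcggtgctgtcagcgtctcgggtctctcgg
Cox8a promoter, chr19:7217567-7217866, minus strand: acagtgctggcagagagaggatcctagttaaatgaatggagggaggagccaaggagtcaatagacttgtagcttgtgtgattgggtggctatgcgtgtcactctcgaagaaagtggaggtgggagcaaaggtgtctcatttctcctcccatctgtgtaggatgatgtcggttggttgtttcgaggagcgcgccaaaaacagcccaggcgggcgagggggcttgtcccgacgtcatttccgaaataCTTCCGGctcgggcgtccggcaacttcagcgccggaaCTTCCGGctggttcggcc
Cox8b promoter, chr7:140900397-140900696, minus strand: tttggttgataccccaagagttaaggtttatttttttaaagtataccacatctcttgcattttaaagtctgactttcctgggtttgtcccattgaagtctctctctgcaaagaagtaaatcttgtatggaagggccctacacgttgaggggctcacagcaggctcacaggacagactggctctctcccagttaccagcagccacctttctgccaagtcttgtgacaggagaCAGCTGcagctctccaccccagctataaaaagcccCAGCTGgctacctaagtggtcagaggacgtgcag
Cox6a1 held 2 NRF1 matches and 1 GABP match, Cox8a 2 GABP matches, and Cox8b 2 E-boxes and no NRF1 or GABP match. The 3 are examples, and not all members divided this way. No promoter entry was available for Cox6a2, the muscle partner of Cox6a1, so it could not be searched. The muscle isoform Cox7a1 and the widespread isoform Cox7a2 held none of these motifs, and Atp5b held an E-box and no NRF1 or GABP match.

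There were 5261 cells in the white library, at a median of 26239 UMIs, and 7009 cells in the brown library, at a median of 26411. The limits on genes, UMIs and mitochondrial share in the study's methods kept 4407 white and 6137 brown cells, and 8 barcodes occurred in both. Of these, 4331 white and 5958 brown cells were precursors, 47 and 68 were glial-like, 29 and 78 myeloid-like, and 33 brown cells myogenic-like. The precursor markers Pdgfra and Pdgfrb had 83.7 and 147 CPM in brown precursor cells and 26.3 and 27.3 CPM in the myogenic-like cells, whereas Dlk1, which is not specific to fat precursors, had 383 and 582 CPM. The 9 myogenic markers, among them Myog and Myod1, summed to 3.85 CPM in brown precursor and 6324 CPM in myogenic-like cells. Clusters of precursors carry the authors' names, which are given for 1999 cells per depot: committed precursors (CAPs), cells with a profile of matrix, stress and immune genes (FAPLs) and numbered early clusters (APC), with w or b for the depot. With 1 library per depot there is no test. The intervals are exact, at 95%, and cover counting error only. A member was counted as higher or lower past 1.3-fold if it had at least 10 CPM in either group.

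All members but Cox7b2 and Cox8c reached 10 CPM in at least 1 group. In white precursor cells the nuclear members made up 1.81% of UMIs and the mitochondrial members 3.04%, or 515 and 863 UMIs per cell. In brown precursor cells they made up 2.13% and 3.00%, or 605 and 854 UMIs per cell. The nuclear share was thus higher in brown cells while the mitochondrial share lay close in both. The 13 mitochondrial members are the only mitochondrial genes listed, so the filter on cells, from 1.7 to 5% of UMIs, bounded their summed share directly. Because UMIs are counted near the 3′ end of transcripts and not scaled by length, levels are compared between cells and not between genes.

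Across the named precursor clusters the nuclear share ran from 1.69% in wAPC 2 to 2.37% in bAPC 2. White clusters other than the 15 cells called differentiating wFAPLs lay at 1.69 to 1.97% and brown clusters at 1.96 to 2.37%. Only wAPC 3 (1.97%) and the differentiating wFAPLs (2.02%) reached the lowest brown clusters, bAPC 1 (1.96%) and bAPC 4 (1.97%). The mitochondrial share ran from 2.83% in bFAPLs to 3.18% in differentiating wFAPLs, with no separation of the depots. The ratio of nuclear to mitochondrial UMIs was 0.597 in white and 0.708 in brown precursor cells, with 0.556 in wAPC 2 and 0.804 in bAPC 2 as the ends among precursor clusters. The nuclear share moved little with the cell cycle, at 1.82% in G1, 1.82% in S and 1.79% in G2M in white cells and 2.13%, 2.15% and 2.10% in brown cells. The mitochondrial share was 3.09%, 3.02% and 2.95% over the same phases in white and 3.07%, 2.93% and 2.88% in brown cells, lowest in G2M in both depots.

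**Figure D1:**
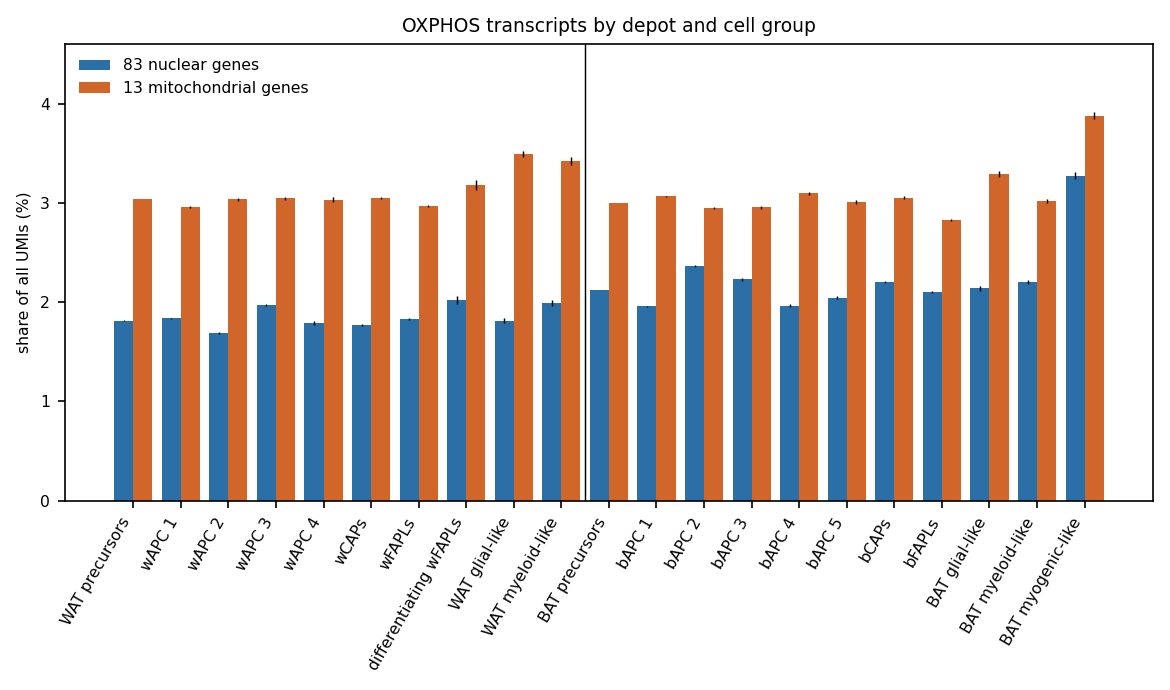
Share of all UMIs (%) from the nuclear (blue) and mitochondrial (orange) members, as bars from 0 for each precursor cluster and cell type, white left and brown right of the line, with exact 95% intervals for counting error. The myogenic-like cells had the highest nuclear share (3.27%) and the highest mitochondrial share (3.88%), and among precursor clusters bAPC 2 had the highest nuclear share (2.37%).

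The first comparison set white against brown precursor cells. Nuclear subunits were a little lower in white cells in nearly every case, and no complex stood alone in this. Of the 78 nuclear members at 10 CPM, 75 lay below 0 on the log2 scale, with a median of -0.20, against 0.04 over all 9037 genes. The medians were -0.17 for complex I, -0.13 for II, -0.20 for III, -0.29 for IV and -0.22 for V. Few of these differences passed 1.3-fold: 5 of 91 members at 10 CPM were higher in white cells and 6 lower, beside 9.08% and 3.80% of all genes. Of the mitochondrial members, 10 of 13 lay above 0. The 5 higher members were mt-Nd6, mt-Nd5, Cox6a2 and, just past the limit, mt-Nd4l and mt-Atp8.

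The 6 members lower in white cells were small accessory subunits. Cox6c, an accessory subunit of complex IV, had 454 CPM in white and 634 CPM in brown cells, a log2 ratio of -0.48 [-0.50 to -0.47]. Cox8a, the widespread isoform of the smallest complex IV subunit, had 625 and 852 CPM (-0.45), and Cox6b1 317 and 421 CPM (-0.41). In the ATP synthase, Atp5k, which encodes subunit e of the membrane part, had 156 and 217 CPM (-0.48), and Atp5md, another membrane subunit, 194 and 262 CPM (-0.43). Ndufa3, an accessory subunit of complex I, had 113 and 151 CPM (-0.42). By cluster, white against brown, Cox6c had 415 to 537 against 567 to 737 CPM and Atp5k 152 to 170 against 198 to 240 CPM. Cox8a had 567 to 906 against 751 to 970 CPM. No share of all genes is given beside these ranges, and the clusters of a depot come from 1 library.

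Complexes II and III had no member past 1.3-fold. Sdhd and Sdhc, the membrane anchors of complex II, had 55.6 and 66.2 CPM in white and 64.0 and 76.0 CPM in brown cells (-0.20 for both), and the catalytic subunit Sdha had 87.7 and 92.0 CPM (-0.07). In complex III, Uqcr11 had 223 and 285 CPM (-0.35) and Uqcrh, the hinge protein that helps cytochrome c dock, 299 and 365 CPM (-0.29). All 9 nuclear members of complex III lay below 0, whereas in complex II Sdhb, an iron-sulfur subunit, had 141 and 138 CPM (0.03).

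**Figure D2:**
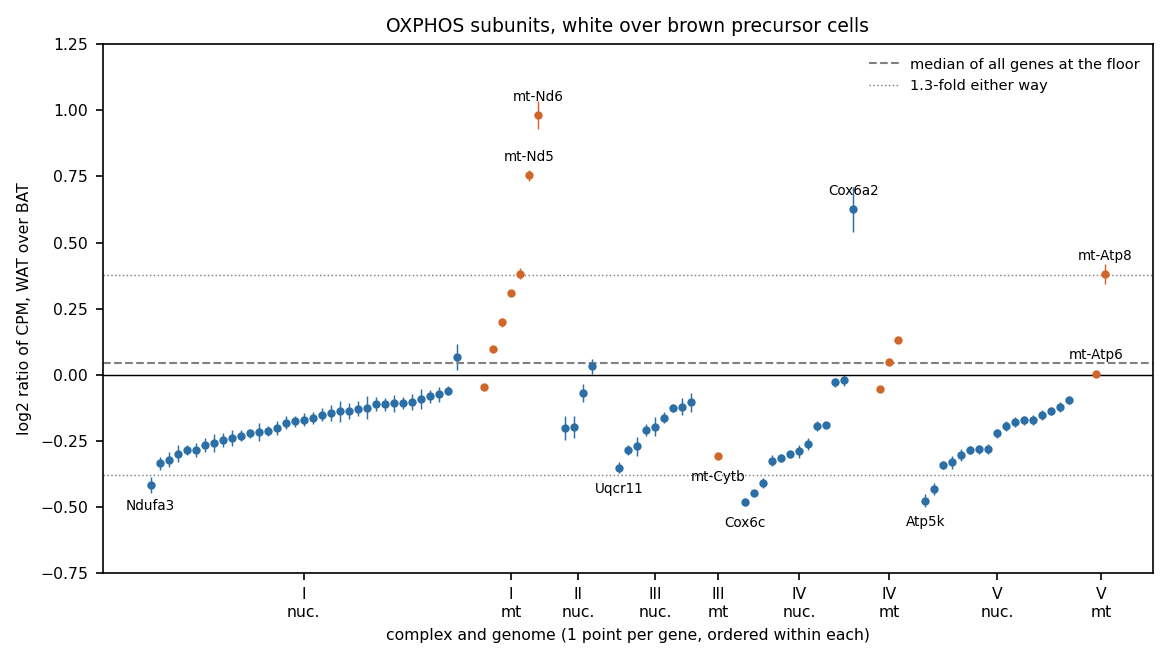
Log2 ratio of CPM in white over brown precursor cells for each member at 10 CPM (1 point per gene, ordered within complex and genome, blue nuclear and orange mitochondrial), with exact 95% intervals for counting error, the median of all genes (dashed) and 1.3-fold (dotted). Of the nuclear members 75 of 78 lie below 0, and mt-Nd6 (0.98) and mt-Nd5 (0.76) lie farthest above it.

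The 13 mitochondrial genes, which are transcribed together from each strand and then cut apart, did not move as a block. mt-Nd6, the one complex I gene encoded on the other strand, had 56.2 CPM in white and 28.5 CPM in brown cells, a log2 ratio of 0.98 [0.93 to 1.03]. mt-Nd5 had 351 and 208 CPM (0.76 [0.73 to 0.78]), mt-Nd4l 341 and 262 CPM (0.38) and mt-Nd4 1468 and 1185 CPM (0.31). mt-Nd3 had 421 and 367 CPM (0.20) and mt-Nd2 1127 and 1053 CPM (0.10), whereas mt-Nd1 had 1162 and 1200 CPM (-0.05). The complex I genes thus spanned ratios from near 0 to near 1.

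The other mitochondrial genes lay closer together. mt-Cytb, the cytochrome b of complex III, went the other way, with 2737 CPM in white and 3388 CPM in brown cells (-0.31 [-0.31 to -0.30]). The catalytic subunits of complex IV had 4539 and 4391 CPM for mt-Co1 (0.05), 5651 and 5864 CPM for mt-Co2 (-0.05) and 5529 and 5047 CPM for mt-Co3 (0.13). In the ATP synthase, mt-Atp6 had 6956 and 6943 CPM (0.00) and mt-Atp8 85.1 and 65.4 CPM (0.38 [0.34 to 0.42]). Reads of neighbours on one strand can be shared here, since mt-Atp8 overlaps mt-Atp6 by 43 bases and mt-Nd4l overlaps mt-Nd4 by 7. The overlap of mt-Nd6 with mt-Nd5, of 14 bases, is on opposite strands.

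By cluster, mt-Nd6 had 53.7 to 68.0 CPM in white and 13.2 to 35.1 CPM in brown precursors, and mt-Nd5 316 to 432 against 152 to 237 CPM. A UMI of mt-Nd6 was found in 72.8% of white and 49.0% of brown precursor cells. mt-Cytb had 2653 to 3248 CPM in white clusters and 3157 to 3773 CPM in brown ones, and these ranges overlapped. No share of all genes is given beside the ranges of these genes. The clusters of a depot come from 1 library and are not replicates of it. The lowest values of mt-Nd6 and mt-Nd5 were both in bAPC 2. With bAPC 2 left out of the labelled cells, the log2 ratios of white over brown were 0.85 for mt-Nd6, 0.64 for mt-Nd5 and -0.27 for mt-Cytb, with 74 of 78 nuclear members below 0 and a median of -0.15.

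The cluster bAPC 2 (415 labelled cells) combined the highest nuclear share with low complex I transcripts of the mitochondrial genome. Over the other labelled brown precursors, 76 of 78 nuclear members lay above 0, with a median of 0.19, none of them past 1.3-fold, against a median of -0.14 over all genes. mt-Nd6 had 13.2 CPM there and 32.9 CPM in the other cells (-1.32 [-1.56 to -1.08]), mt-Nd3 265 and 397 CPM (-0.58), and mt-Nd5 152 and 226 CPM (-0.57). mt-Nd4l (-0.55), mt-Atp8 (-0.45) and mt-Nd1 (-0.43) were lower too, and mt-Cytb was higher within the limit (0.21). These 6 were the only members past 1.3-fold, all lower, beside 28.0% of all genes lower and 2.06% higher. The cluster held a median of 5481 genes per cell and 24.2% of its UMIs came from cytosolic ribosomal protein genes, against 21.6% over all brown precursors, and the part of these values in the result was not tested. Clustering used these same counts, so the values describe the cluster.

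Of the 13 mitochondrial members, 9 had their lowest precursor level in bAPC 2. Of the 80 nuclear members with a level, 34 had their highest in bAPC 2 and 20 in bAPC 3, of whose cells 60.2% were in G2M. The lowest level of 41 nuclear members was in wAPC 2. Median genes per cell were 5434 in bAPC 3 and 5472.5 in wAPC 3, against 6179.5 in wAPC 2, 6060 in bAPC 1 and 6160.5 in bAPC 4. The part of these values in the levels was not tested. Over the other labelled cells of their library, 4 of 78 nuclear members lay above 0 in wAPC 2 (median -0.12), 74 of 78 in wAPC 3 (0.14), 3 of 79 in bAPC 1 (-0.17), 5 of 78 in bAPC 4 (-0.15), 56 of 78 in bAPC 3, 58 of 79 in bCAPs and 16 of 78 in wCAPs. In the other clusters the nuclear members went both ways, with 55 of 78 above 0 in wAPC 1, 34 of 78 in wAPC 4, 47 of 78 in wFAPLs, 55 of 80 in differentiating wFAPLs, 27 of 79 in bAPC 5 and 40 of 78 in bFAPLs. Nearly all nuclear members thus lay on one side of 0 in wAPC 2, wAPC 3, bAPC 1, bAPC 2 and bAPC 4, and not in the other clusters. Other than for bAPC 2, no share or median of all genes is given beside these counts. They describe the clusters and cannot be read as particular to these members.

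**Figure D3:**
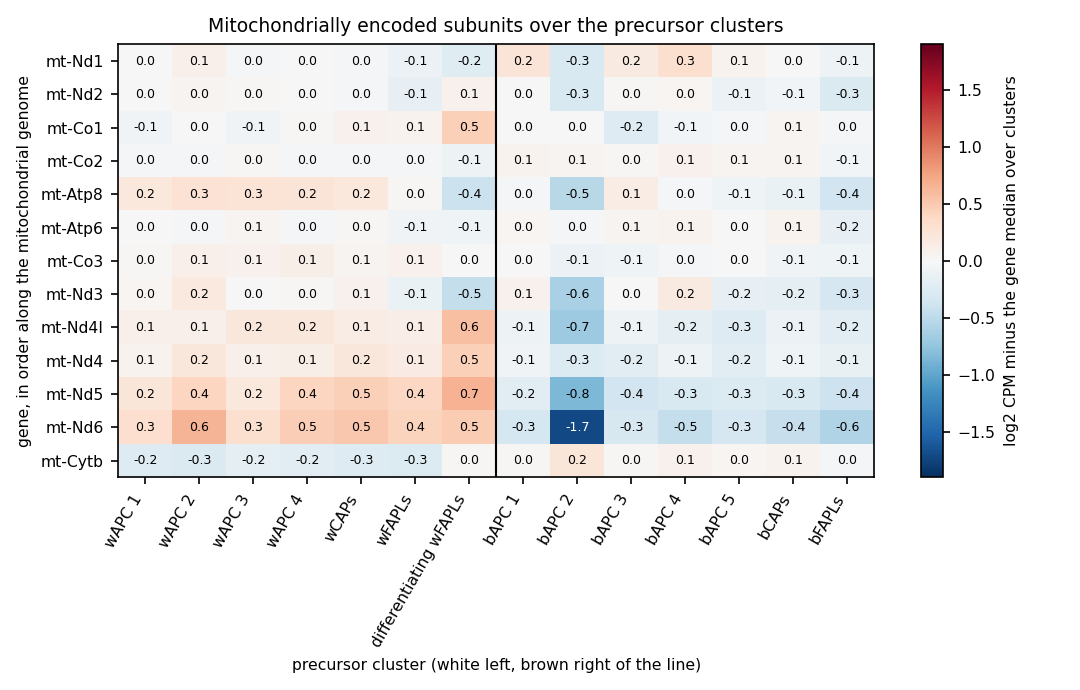
Each mitochondrial member (rows, in order along the mitochondrial genome) in each precursor cluster (columns, white left and brown right of the line), as log2 CPM minus the member's median over the clusters, printed in the cell and shown as colour. mt-Nd5 and mt-Nd6 lie above 0 in white and below 0 in brown clusters, with the lowest values in bAPC 2 (152 and 13.2 CPM). In white clusters other than the differentiating wFAPLs (3248 CPM), mt-Cytb lies at or below 0. All clusters of a depot come from 1 library.

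Committed precursors were set against FAPLs within each depot. In white cells only Cox6a2 passed 1.3-fold, with 17.8 CPM in wCAPs and 31.0 CPM in wFAPLs (-0.80 [-1.05 to -0.55]), so that no member was higher and 1 lower beside 8.60% and 8.00% of all genes. In brown cells 2 members were higher in bCAPs and 1 lower, beside 11.3% and 8.28%. Cox6b2 had 19.3 CPM in bCAPs and 6.37 CPM in bFAPLs (1.60 [1.12 to 2.09]), and Uqcrh 450 and 334 CPM (0.43). Cox6a2 had 3.54 and 22.4 CPM (-2.66 [-3.29 to -2.09]). Cox6b2 and Cox6a2 lay near the floor and reached 10 CPM only in the state where they were higher. Uqcrq, a small subunit of complex III, had 399 and 514 CPM (-0.37), and Ndufa4 789 and 620 CPM (0.35), both within the limit. Of the mitochondrial members, 12 of 13 in white and 13 of 13 in brown cells lay above 0 in CAPs over FAPLs, all within the limit. In brown cells they ran from 0.01 for mt-Co3, whose interval reached below 0, to 0.24 for mt-Atp8. No median of all genes is given beside these signs, and the filter on cells bounded the summed share.

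The same states were then set against each other across depots. In wCAPs over bCAPs, 3 members were higher and 23 lower, beside 14.6% and 12.9% of all genes. Cox6a2 was higher with 17.8 against 3.54 CPM (2.33 [1.78 to 2.93]), followed by mt-Nd6 with 62.0 against 32.1 CPM (0.95) and mt-Nd5 with 377 against 223 CPM (0.75). Cox6b2 (7.99 against 19.3 CPM, -1.27) and Cox6c (452 against 737 CPM, -0.70) were lower, with Atp5k (-0.65) and Ndufa3 (-0.56). Here too Cox6a2 and Cox6b2 reached 10 CPM only in the depot where they were higher. In wFAPLs over bFAPLs, 4 members were higher and 9 lower, beside 11.3% and 5.49%. mt-Nd6 (58.2 against 29.2 CPM, 0.99) and mt-Nd5 (361 against 208 CPM, 0.79) led again, while Cox6a2 had 31.0 against 22.4 CPM (0.47 [0.17 to 0.76]) and mt-Atp8 76.8 against 58.5 CPM (0.39). Ndufa1, an accessory subunit of complex I, had 103 against 148 CPM (-0.52), and Atp5md 197 against 270 CPM (-0.45). mt-Nd6, mt-Nd5 and Cox6a2 were thus higher in white cells in both states.

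Among tissue isoforms, Cox6a2, the heart and skeletal muscle form of a complex IV subunit, was past 1.3-fold in each comparison between depots or between CAPs and FAPLs. Its level was 19.1 CPM in white and 12.4 CPM in brown precursor cells (0.63 [0.54 to 0.71]). Over cells of every type and without the mitochondrial limits, the log2 ratio was 0.37, just short of 1.3-fold. Of the UMIs of Cox6a1 and Cox6a2 together it gave 9.58% [9.22 to 9.96] in white and 5.32% [5.10 to 5.55] in brown precursor cells. It gave 14.7% [12.95 to 16.6] in wFAPLs, 9.02% in bFAPLs, 9.23% in wCAPs and 1.54% [1.03 to 2.20] in bCAPs. By cluster the level of Cox6a2 ran from 15.7 to 31.0 CPM in white and from 3.54 to 22.4 CPM in brown precursors, so the depots overlapped, and the highest of each was in FAPLs. The glial-like cells, a cell type not known for this isoform, gave 1 UMI in white and 6 UMIs in brown cells (0.914 and 3.97 CPM), and bCAPs had 3.54 CPM.

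A UMI of Cox6a2 was found in 28.1% of white and 20.7% of brown precursor cells, with up to 13 and 12 UMIs in a cell. It was found in 26.5% of bFAPLs and in 7.43% [4.72 to 11.0] of bCAPs, against 4.41% [0.919 to 12.4] of brown glial-like cells, at median depths of 25194, 25900.5 and 19494.5 UMIs. With each cell thinned to 10000 UMIs, the shares were 14.4% in white and 9.97% in brown precursor cells, 13.98% in bFAPLs, 4.05% in bCAPs and 4.41% in brown glial-like cells. The interval of the brown glial-like share, which rests on 3 of 68 cells with up to 4 UMIs in a cell, held the share in bCAPs. Another muscle isoform, Cox8b, had 7 UMIs in 1 of these 68 cells, so they are not a clean background. In white glial-like cells 1 of 47 held a UMI of Cox6a2, and 0 after thinning, which allows a share of up to 6.38%.

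The other isoforms were scarce in precursors. Cox6b2 gave 1.75% of the Cox6b UMIs in white and 2.10% in brown precursor cells, 2.56% in wCAPs and 4.01% in bCAPs. Cox7a1, which mature brown adipocytes and muscle use, gave 0.527% of the Cox7a UMIs in white and 0.345% in brown precursor cells. In the 15 differentiating wFAPLs it gave 5.77%, from 12 UMIs (25.2 CPM), where 6 markers of mural cells summed to 6387 CPM. Cox8b had 2 UMIs in all white and 5 UMIs in all brown precursor cells. Cox7b2 had 9 and 10 UMIs, and Cox8c 0 and 1. Atp5g1, Atp5g2 and Atp5g3 encode the same c-ring subunit of the ATP synthase, and Atp5g3 gave 19.3% of their UMIs in white and 21.4% in brown precursor cells.

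**Figure D4:**
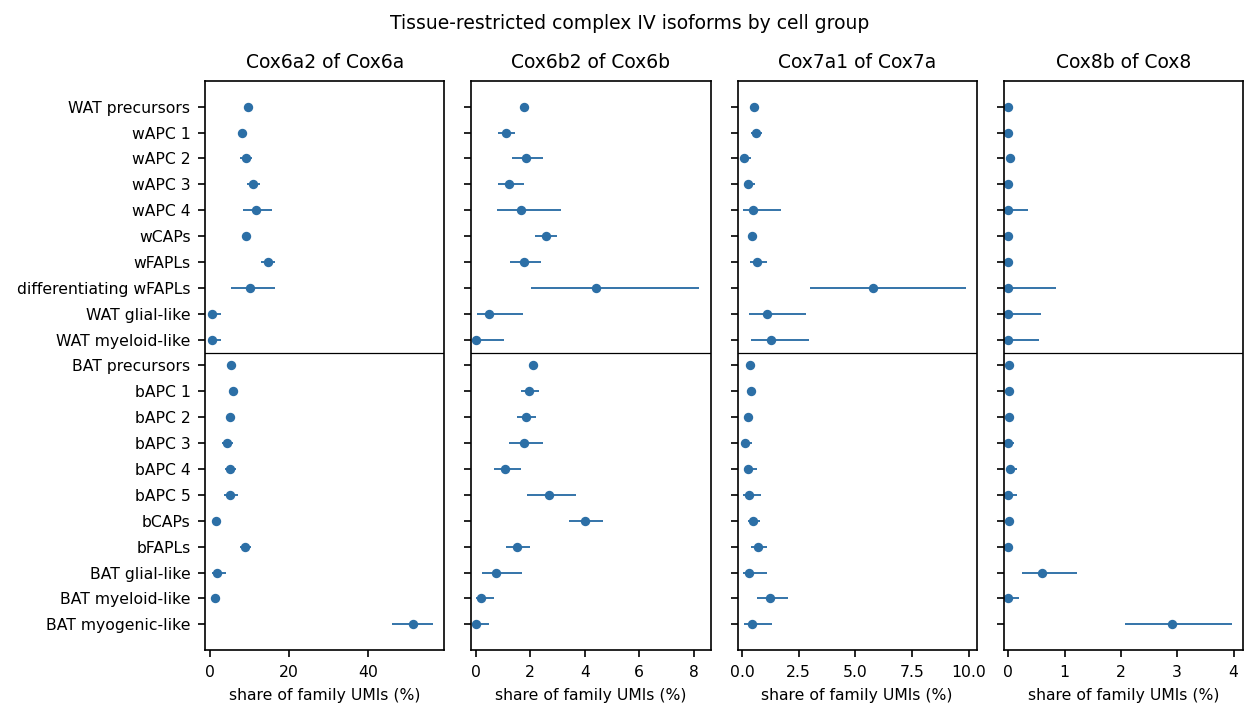
Share (%) of a family's UMIs from the isoform named above each panel (points, with exact 95% intervals for counting error) in each precursor cluster and cell type, with its own x axis in each panel. Cox6a2 reached 51.2% in the myogenic-like cells, 14.7% in wFAPLs and 1.54% in bCAPs, and Cox8b reached 2.91% in the myogenic-like cells.

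The myogenic-like cells had the highest summed share of UMIs from the nuclear and from the mitochondrial members, though not the highest level of every member. Their nuclear members made up 3.27% of UMIs (981 UMIs per cell) and their mitochondrial members 3.88% (1163 UMIs per cell), against 605 and 854 UMIs in brown precursor cells at a median total of 27334 and 26413 UMIs. Over brown precursor cells, 70 of 92 members at 10 CPM were higher and 1 lower, beside 24.4% and 42.9% of all genes. The median log2 ratio was 0.61 for the nuclear members, against -0.22 over all genes. The 33 cells come from 1 library and include all 8 cells the authors called myoblasts among the 1999 brown cells with labels.

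Complexes I, III, IV and V had most of their nuclear members higher, and complex II had 1. Of the nuclear members at 10 CPM, 24 of 35 in complex I, 1 of 4 in complex II, 9 of 9 in complex III, 11 of 14 in complex IV and 15 of 17 in complex V were higher. The 1 of 4 in complex II is near the 24.4% of all genes. Ndufa12, an accessory subunit of complex I, had 271 CPM in myogenic-like and 140 CPM in brown precursor cells (0.95). In complex II, Sdhd had 141 and 64.0 CPM (1.14 [0.88 to 1.38]), and Sdhb (174 and 138 CPM, 0.33) and Sdha (105 and 92.0 CPM, 0.19) were within the limit. In complex III, Cyc1, the cytochrome c1 that hands electrons to cytochrome c, had 292 and 116 CPM (1.34 [1.17 to 1.51]), Uqcrh 750 and 365 CPM (1.04) and Uqcr11 574 and 285 CPM (1.01).

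In complex IV the muscle isoforms led. Cox8b had 38 UMIs in the 33 myogenic-like cells and 5 in the 5958 brown precursor cells, or 38.4 and 0.0295 CPM (10.35 [9.0 to 12.05]). It reached 10 CPM only in the myogenic-like cells. Cox6a2 had 194 and 12.4 CPM (3.97 [3.75 to 4.18]), and Cox5a, a nuclear subunit with no muscle form, 858 and 378 CPM (1.18). Cox6a1, the widespread partner of Cox6a2, had 185 and 221 CPM (-0.25), whereas Cox8a had 1282 and 852 CPM. Cox6a2 gave 51.2% [46.0 to 56.4] of the Cox6a UMIs and was found in 75.8% of the cells, or 57.6% after thinning. Cox8b gave 2.91% of the Cox8 UMIs and was found in 60.6% of the cells, or 30.3% after thinning, against 0.0839% of brown precursor cells. Cox7a1 had only 3 UMIs and Cox6b2 none of 750 Cox6b UMIs, which allows a share of up to 0.400%.

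In complex V, Atp5g3 had 624 and 273 CPM (1.19 [1.08 to 1.31]) and gave 30.3% of the c-ring UMIs. Atp5k had 466 and 217 CPM (1.10) and Atp5md 547 and 262 CPM (1.06). The one lower member was Ndufa3, with 108 and 151 CPM (-0.48). Of the mitochondrial members 10 of 13 were higher, with all 7 of complex I, both of complex V and 1 of 3 of complex IV. mt-Atp8 had 137 and 65.4 CPM (1.06) and mt-Nd4l 505 and 262 CPM (0.95), while mt-Co1 had 4496 and 4391 CPM (0.03). The ratio of nuclear to mitochondrial UMIs was 0.844, in cells whose mitochondrial share the filter held below 5%.

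The upper limit on the mitochondrial share also removed cells with myogenic markers. Of the 56 brown cells that passed the limits on genes and UMIs but were removed for a mitochondrial share of 5% or more, 21 held UMIs of at least 3 of the 9 myogenic markers, against 35 of the 6137 cells kept. The mitochondrial level of the 33 myogenic-like cells was therefore capped by the filter.

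**Figure D5:**
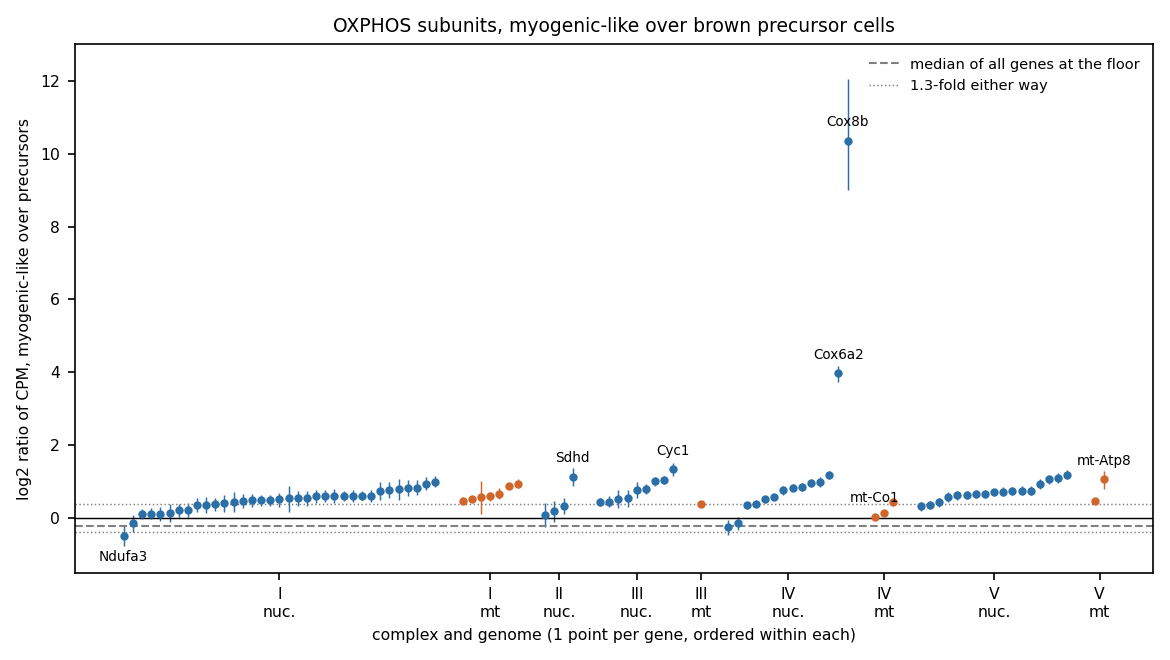
Log2 ratio of CPM in myogenic-like over brown precursor cells for each member at 10 CPM (1 point per gene, ordered within complex and genome, blue nuclear and orange mitochondrial), with exact 95% intervals for counting error, the median of all genes (dashed) and 1.3-fold (dotted). Cox8b (10.35) and Cox6a2 (3.97) lie farthest above 0, and 70 of 92 members lie above the 1.3-fold line.

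Glial-like and myeloid-like cells were compared with the precursors of their library. In glial-like cells 6 members were higher and 6 lower in white (beside 34.8% and 24.7% of all genes), and 7 higher and 4 lower in brown (34.0% and 23.4%). mt-Nd2 was higher in both, with 2149 against 1127 CPM (0.93) in white and 1779 against 1053 CPM (0.76) in brown cells. Ndufa3 was lower in both, with 59.4 against 113 CPM (-0.93) and 94.0 against 151 CPM (-0.68), and mt-Nd6 too (-0.81 and -0.67). In myeloid-like cells 22 members were higher and 6 lower in white (beside 34.5% and 35.5%), and 15 higher and 9 lower in brown (32.2% and 34.1%).

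In complex II, 3 of 4 members were higher in myeloid-like cells in each depot, beside 34.5% of all genes in white and 32.2% in brown cells. Sdha was at 0.56 in white and, just past the limit, at 0.38 in brown cells. Counts by complex are not given on the other scale used below. Sdhd had 95.9 against 55.6 CPM (0.79) in white and 100.2 against 64.0 CPM (0.65) in brown cells, and Sdhc was at 0.57 in both. Cox7a2, the widespread isoform of its family, had 459 against 271 CPM (0.76) and 531 against 339 CPM (0.65), and mt-Co1 7495 against 4539 CPM (0.72) and 6355 against 4391 CPM (0.53). mt-Nd6 (-0.93 and -1.17) and Ndufv1, the flavoprotein subunit of complex I that takes electrons from NADH (-0.66 and -0.67), were lower. Cytosolic ribosomal protein genes took 12.7 and 14.5% of UMIs in glial-like, 10.8 and 13.4% in myeloid-like and 20.4 and 21.6% in precursor cells of white and brown tissue. Per UMI of the other nuclear genes, which leaves those genes out, 2 members were higher and 14 lower in white glial-like, 1 and 12 in brown glial-like, 10 and 13 in white myeloid-like, and 6 and 19 in brown myeloid-like cells, so that the counts of these 4 groups depended on the scale.

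Genes that work beside the complexes were read from lists, with counts over genes at 10 CPM. In white over brown precursor cells, where 9.08% of all genes were higher and 3.80% lower, 0 of 37 assembly factors were higher and 1 lower (Pet100, which helps to build complex IV, -0.62), 1 of 11 regulators of mitochondrial biogenesis was higher (Myc, 0.43), and 1 of 10 mobile carriers and uncoupling proteins was lower (Ucp2, -0.60). None of 14 genes of the tricarboxylic acid cycle, 14 of glycolysis or 78 of the mitochondrial ribosome passed the limit, and 65 of the 78 lay below 0. In myogenic-like over brown precursor cells, where 24.4% of all genes were higher and 42.9% lower, 16 of 41 assembly factors were higher and 5 lower, with Sco1 (1.96) and Cox17 (1.51), which both deliver copper to complex IV, among the higher. Of the carriers 4 of 10 were higher and 1 lower, with Cycs, the cytochrome c itself, at 342 against 119 CPM (1.53). Of the regulators 6 of 13 were higher and 3 lower, led by Ppargc1b (2.32), of the tricarboxylic acid cycle 9 of 14 were higher and 0 lower, with Idh3a (1.29), and of the mitochondrial ribosome 39 of 78 were higher and 4 lower. Glycolysis was mixed, with 6 of 15 higher, among them Pfkm, the muscle form of phosphofructokinase (1.64), and 6 lower, among them Ldhb (-1.86). Of the cytosolic ribosomal protein genes 0 of 79 were higher and 10 lower.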

How the data were processed

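Single-cell RNA sequencing was done with 10x 3′ chemistry on 1 white and 1 brown library. The authors counted reads with Cell Ranger 7.0.1 against mm10 (GRCm38), and the deposited values are raw counts of UMIs per gene and cell. That version counts intronic reads by default, and copies of a gene elsewhere in the genome can take or give reads. Ndufa13 overlaps Yjefn3 on the same strand. The study's limits on cells were applied: over 3900 and under 7700 genes (among genes in at least 3 captured cells), 6000 to 60000 UMIs and 1.7 to 5% mitochondrial UMIs. Seurat 5.3.0 in R 4.3.3 built clusters at resolution 0.5 from 10 components of 2000 variable genes. The names glial-like, myeloid-like and myogenic-like required 3 of the type's markers at 50 CPM or more and above 2 times their level elsewhere. No doublet caller was run. Precursor labels come from the authors' source data. For alternatives they were carried to the other cells from 15 neighbours, which returned 91.8% of white and 88.3% of brown labels held out. Summed UMIs were scaled to CPM in Python 3.11.15 with numpy 2.4.6, scipy 1.17.1 and pandas 2.3.3, with exact Poisson, Clopper-Pearson and conditional binomial intervals, tested on simulated data. Upper limits at a count of 0 use 3 counts. Members named are the mitochondrial genes, the tissue isoforms and up to 3 per complex with the largest log2 ratio in a comparison, and at most 5 genes per list. A result that this rule names is not reported here. The members and lists were chosen with earlier results of these data known.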

Additional observations from a re-analysis of the deposited data

Results flagged for a closer look

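Cox6a2 was flagged because its level was high in cells outside the comparisons. In the 56 brown cells that were removed for a mitochondrial share of 5% or more it had 189.7 CPM [166.8 to 214.8] from 248 UMIs, against 13.2 CPM in the 6137 brown cells kept and 194 CPM in the 33 myogenic-like cells. In the 41 white cells removed by the same limit it had 9.49 CPM, against 18.8 CPM in the 4407 white cells kept. The 9 myogenic markers summed to 3530 CPM in the removed brown cells, 39.8 CPM in the brown cells kept and 2.37 CPM in the removed white cells.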

How the results depend on the processing

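No paired analysis was possible because there is 1 library per depot and no test, and no replicate could be left out. Of 193 values under alternatives, 117 stayed within the limits set for them, 72 moved and 4 reversed. Among the values of the main results 73 stayed and 69 moved, and among the others 44 stayed, 3 moved and 4 reversed. Those 4 were the medians of the nuclear members in glial-like and myeloid-like cells, which per UMI of other nuclear genes were -0.10 in white glial-like, -0.11 in white myeloid-like, -0.10 in brown glial-like and -0.13 in brown myeloid-like cells, with 2 members higher and 14 lower, 10 and 13, 1 and 12, and 6 and 19 in the same order. The cause was not tested beyond the share of ribosomal protein genes given there. The alternatives for bAPC 2, glial-like and myeloid-like cells, and that for white over brown without bAPC 2, were chosen after seeing the data.

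In white over brown precursor cells, 3 members were higher in G1 cells, per UMI of other nuclear genes, at 1.5-fold and without bAPC 2. At 1.5-fold 0 were lower. Over cells of every type 3 were higher, and 2 with the mitochondrial limits left out as well. In wCAPs over wFAPLs, 1 was higher per UMI of other nuclear genes, 0 lower at a floor of 50 CPM, and 2 higher and 2 lower without a floor. In bCAPs over bFAPLs, 1 was higher in thinned cells, at 50 CPM, at 1.5-fold and with labels carried over, 2 were lower with labels carried over or with the mean over cells, 0 were lower at 50 CPM, and without a floor 4 were higher and 3 lower. In myogenic-like cells 2 were lower in thinned cells, in G1 cells and per UMI of other nuclear genes, 4 without a floor and 0 at 1.5-fold, where 47 were higher. In bAPC 2, 3 were higher in G1 cells and 6 per UMI of other nuclear genes. In white glial-like cells 10 were higher in thinned cells, and 1 higher and 3 lower at 1.5-fold, where 6 were higher in white myeloid-like, 1 in brown glial-like and 3 in brown myeloid-like cells (4 lower). In thinned cells Cox6a2 gave 12.5% of its family in wFAPLs, Cox6b2 4.91% in bCAPs and Cox8b 4.00% in myogenic-like cells. The log2 ratio of Cox6a2, white over brown, was 0.37 over cells of every type without the mitochondrial limits. Those brown cells included the myogenic-like cells (192 UMIs of Cox6a2) and the cells removed at the upper limit (248 UMIs). Their part in the 0.37 was not tested. In labelled precursor cells without bAPC 2 the log2 ratio of Cox6a2 was 0.73. Of UMIs, nuclear members gave 1.83% (thinned), 1.82% (G1), 1.83% (mean over cells) and 1.80% (all cells with 1000 genes) in white precursor cells, and 2.15%, 2.13%, 2.14% and 2.13% in brown ones, with 2.14% in brown cells without the mitochondrial limits. Mitochondrial members gave 3.07%, 3.09%, 3.07% and 3.07% in white cells, 3.06% without those limits, and 3.02%, 3.07%, 3.02% and 3.01% in brown cells, 3.02% without them. Relative to other nuclear genes, they gave 2.43% (nuclear) and 4.07% (mitochondrial) in white and 2.90% and 4.09% in brown cells. With labels carried over, the mitochondrial share of wAPC 2 was 3.10%. The order of depots in the nuclear share held in each. Depth limits Cox8b, Cox7a1 and Cox7b2 in precursors, and all values in the 15 differentiating wFAPLs and 33 myogenic-like cells.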

Other observations

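The cells removed by the limits on mitochondrial share alone also differed in the nuclear members. The 56 brown cells at or above the upper limit had 6.51% of UMIs from the mitochondrial and 2.97% from the nuclear members, against 3.01% and 2.13% in the brown cells kept. Of these 56 cells, 21 held at least 3 myogenic markers, so their shares are not those of precursors alone. The 41 white cells at or above the upper limit had 6.25% and 2.05%, against 3.05% and 1.82%. At or below the lower limit, 45 white cells had 1.38% and 1.64%, and 55 brown cells had 1.39% and 2.34%.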
